A study of Mus musculus with 11 samples.

Results

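Neurog1, Neurog2, Neurod1, Neurod2, Neurod4, Neurod6 and Eomes were followed through 2 experiments on mice that lack the RNA-binding protein Syncrip in neural progenitor cells (NPCs). The 7 genes were taken by name, and all 7 were found among the 48440 genes of the bulk count table and among the 32285 genes of the scRNA-seq matrices. Of these genes, 6 encode basic helix-loop-helix (bHLH) factors and Eomes (Tbr2) encodes a T-box factor. RNA-seq covered 3 WT and 3 Syncrip cKO cultures of primary NPCs from E14.5 embryos, taken around the lateral ventricles and passaged in medium with EGF and bFGF. Droplet scRNA-seq covered dissected dorsal telencephalon of 1 WT and 1 cKO embryo of the same litter at E14.5. LoxP sites flank exons 2 to 4 of Syncrip. By itself, cKO is the study's name for the cross to Emx1-Cre, which deletes in the dorsal neocortex, and a separate Nestin-Cre line is named where it was used, both on a C57BL/6 background. The labels and the description of the cultures and the single-cell embryos say only cKO, and do not state whether the WT samples carried loxP alleles. Nothing states that the cultures came from separate embryos, so p-values measure the spread between these cultures only.

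Neurog1 and Neurog2 are proneural factors: bound to E proteins, they switch on neuronal genes and Notch ligands in progenitors of the dorsal cortex. Apical progenitors (APs) line the ventricle, and many of their daughters become intermediate progenitors (IPs), which express Eomes and divide to give excitatory neurons. Neurod4 and Neurod1 are bHLH factors of cells in transition to neurons, and Neurod2 and Neurod6 mark excitatory neurons. Id proteins bind E proteins and keep them from the bHLH factors, and Hes and Hey factors repress proneural genes downstream of Notch.

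The bHLH factors bind E-boxes, CANNTG, so the 250 bases before the start of each gene were searched for this motif (RefSeq, GRCm38.p6, both strands, which are the same for CANNTG). Neurog2, Neurod2 and Neurod6 are shown because they are the 3 genes whose level could be tested in the cultures. Capitals mark CANNTG.

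Neurog2: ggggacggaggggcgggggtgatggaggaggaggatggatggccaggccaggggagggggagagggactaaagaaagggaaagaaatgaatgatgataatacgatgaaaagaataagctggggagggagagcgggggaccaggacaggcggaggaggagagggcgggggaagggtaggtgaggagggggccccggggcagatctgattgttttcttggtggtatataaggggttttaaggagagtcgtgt

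Neurod2: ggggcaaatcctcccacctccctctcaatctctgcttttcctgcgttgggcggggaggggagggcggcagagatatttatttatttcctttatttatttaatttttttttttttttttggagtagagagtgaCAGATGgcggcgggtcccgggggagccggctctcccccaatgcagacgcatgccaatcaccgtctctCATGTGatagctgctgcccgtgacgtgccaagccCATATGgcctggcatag

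Neurod6: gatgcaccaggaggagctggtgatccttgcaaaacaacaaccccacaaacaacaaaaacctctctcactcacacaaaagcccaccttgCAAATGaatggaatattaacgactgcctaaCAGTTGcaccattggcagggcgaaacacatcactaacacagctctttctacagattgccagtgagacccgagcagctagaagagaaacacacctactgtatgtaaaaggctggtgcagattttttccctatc

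The Neurog2 window lies at chr3:127632886-127633135 (plus strand), the Neurod2 window at chr11:98329646-98329895 (minus strand) and the Neurod6 window at chr6:55681264-55681513 (minus strand). Neurod2 held 3 matches to CANNTG, Neurod6 held 2, Neurod1 held 1, and the windows of Neurog1, Neurog2, Neurod4 and Eomes held 0. Of 32851 windows of this length, 66.2% held at least 1 match, with 1.16 on average. CAGATG or its reverse complement CATCTG, the E-box form best known for Neurog and Neurod factors, occurred once, in Neurod2, and in 14.4% of all windows. CATATG occurred in Neurod1 and Neurod2 and in 3.46% of all windows. A match is a string of letters and not a measured binding site.

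The cell types of the tissue were rebuilt by clustering, with the 7 genes left out of the genes used for it. The matrices held 8289 WT and 9659 cKO barcodes, of which 8214 and 9559 were kept, with medians of 11705 and 11016 UMIs per cell; 22 barcode sequences occurred in both libraries. Of 26 clusters, 2 were AP-like (1866 cells), 4 IP-like (3038 cells), 1 migrating neuron-like (1931 cells) and 2 excitatory neuron-like (2138 cells). Levels are given as CPM, the UMIs of a gene summed over a group of cells for every 1000000 UMIs of that group, intervals are exact at 95% for counting error alone, and with 1 embryo per genotype there was no test. The embryos also differed in sex, with 2 UMIs of Xist in WT and 105339 in cKO.

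The level in non-neural cells was taken as a lower limit for reading these levels. In 471 endothelial-, microglia-, meningeal- and red blood cell-like cells, which should lack all 7 genes, Neurod6 was at 122 CPM (113 to 132), Neurod2 at 56.4 (50.1 to 63.3), Neurog2 at 19.8 (16.1 to 24.0), Eomes at 16.8 (13.5 to 20.8) and Neurod1 at 15.9 (12.6 to 19.7). Neurog1 and Neurod4 were below 1 CPM there. The 223 cells named meningeal-like also had 7 pericyte markers raised. With a finer clustering (resolution 1.2), 185 cells were named pericyte-like and 39 meningeal-like, so the non-neural cells include many pericyte-like cells. A level in a dorsal class was read only where its interval lay above the interval of these non-neural cells in both libraries. Ganglionic eminence-like cells, named from GABAergic genes, also lay above it for Neurod6 and Neurod2. Neurod6 was there at 182 (WT) and 162 CPM (cKO), and Neurod2 at 78.0 and 83.4 CPM. Lying above this limit thus does not by itself show that a class expresses a gene. The non-neural background was uneven for Neurog2 and Eomes, since the endothelial-like cluster (23; 24 WT and 33 cKO cells) held 58 UMIs of Neurog2 and 47 of Eomes in cKO (53.3 and 43.2 CPM) against 7 and 4 in WT (5.76 and 3.29 CPM). Without cluster 23, left out after seeing the data, Neurog2 was at 13.4 (WT) and 12.3 CPM (cKO) and Eomes at 17.2 and 8.21 CPM in the non-neural cells.

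The members differed in where along the lineage they peaked. Neurog1, Neurog2, Neurod4 and Eomes peaked in the same IP-like cluster, Neurod1 peaked in the next cluster in order of neuronal transcripts, and Neurod2 and Neurod6 stayed high in neurons. Clusters were ordered by the summed level of 12 postmitotic neuron genes, which rose from 942 CPM in the mitotic AP-like cluster (number 10, led by Depdc1a and Aurkb) and 1268 CPM in the AP-like cluster led by Hes5 and Aldoc (5) to 2886 CPM in the mitotic IP-like cluster (15), 2990 CPM in the IP-like cluster led by Btbd17 and Gadd45g (12) and 4500 CPM in the large IP-like cluster led by Itga4 and Mfap4 (0). The migrating neuron-like cluster (1) followed at 5120 CPM, then unnamed clusters, then the excitatory neuron-like clusters led by Kctd8 (4) at 7408 CPM and by Hs3st4 (7) at 8042 CPM. The small IP-like cluster 22 lay past the migrating neuron-like cluster, at 5274 CPM. It held Neurog2 at 400 (WT) and 306 CPM (cKO) and Eomes at 487 and 414 CPM, so neither gene fell steadily along this order. Cluster 0 also carried 7 of 10 markers of migrating neurons, against 8 of 10 of IPs, so it lay between these classes. Clusters 15 and 12 lay close together in this order, at 2886 and 2990 CPM. Neurod1, Neurod2 and Neurod6 were higher in cluster 15 than in cluster 12 in both embryos. The members thus did not rise in a strict sequence. Mitotic is a short name here for clusters 10 and 15, with Mki67 at 371 and 389 CPM against 61.6 CPM in cluster 5. Their leading genes also included Esco2 and Hist1h3c (10) and Clspn and Rrm2 (15), genes of DNA replication. These clusters thus hold cells in S phase as well as in mitosis.

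**Figure D1:**
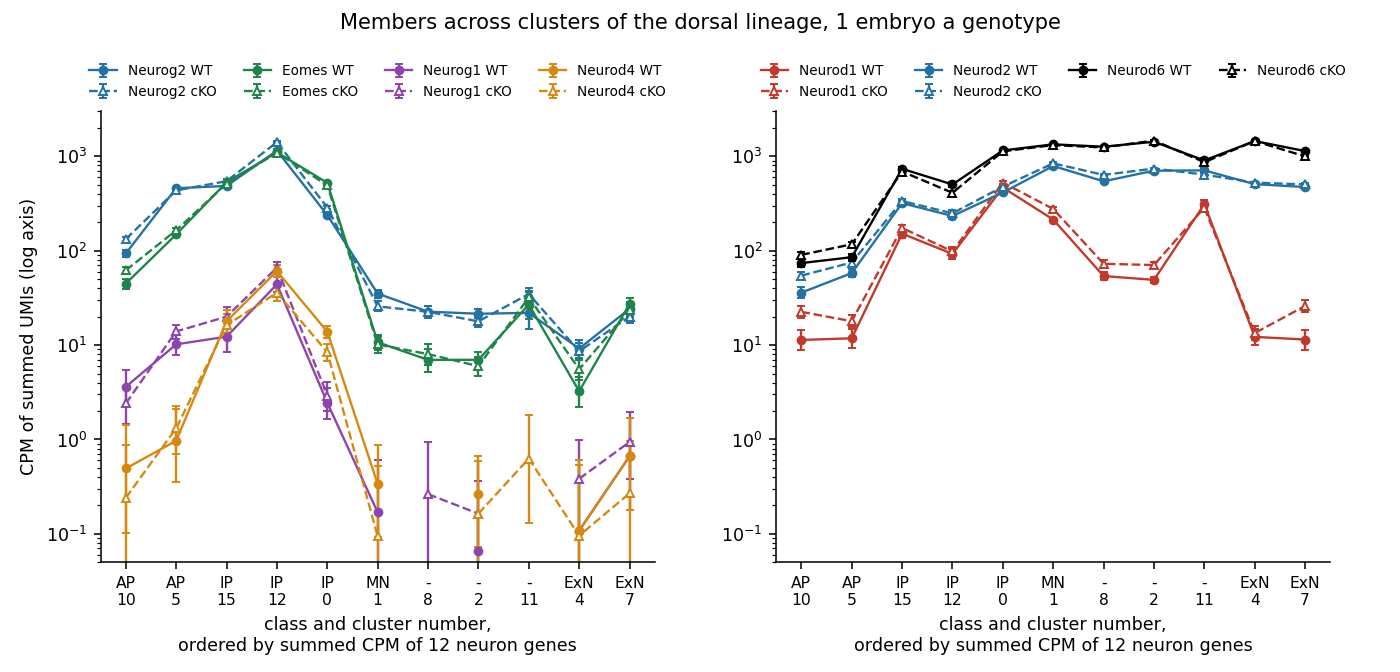
CPM of summed UMIs (log axis) of the early members (left) and of Neurod1, Neurod2 and Neurod6 (right) in 11 clusters of the dorsal lineage, ordered by the summed CPM of 12 neuron genes, with filled circles and solid lines for the WT embryo, open triangles and dashed lines for the cKO embryo, and bars for the exact 95% counting interval (groups with no UMI have no point; AP, apical progenitor-like; IP, intermediate progenitor-like; MN, migrating neuron-like; ExN, excitatory neuron-like; -, unnamed). Neurog2 and Eomes peak in cluster 12 above 1000 CPM, Neurod1 peaks in cluster 0, and Neurod2 and Neurod6 stay above 400 CPM from cluster 0 on.

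Neurog2, the main proneural factor of the dorsal cortex, was already high in APs. It was at 93.5 (WT) and 133 CPM (cKO) in mitotic APs, at 459 and 435 CPM in the other APs, at 486 and 546 CPM in mitotic IPs and at 1148 and 1413 CPM in cluster 12. It then fell to 239 and 287 CPM in cluster 0 and to 35.1 and 25.7 CPM in migrating neuron-like cells, which was above the non-neural cells in WT but, in cKO, only without cluster 23. The APs of cluster 10 thus held less Neurog2 than those of cluster 5 in both embryos, while cluster 5 and the IPs of cluster 15 were close to each other.

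Eomes, the defining transcription factor of IPs, took the same course at a lower start. In APs it was at 44.9 (WT) and 62.0 CPM (cKO) in the mitotic cluster and at 149 and 164 CPM in the other. It reached 531 and 515 CPM in mitotic IPs, 1102 and 1093 CPM in cluster 12 and 524 and 492 CPM in cluster 0. In migrating neurons it stood at 10.7 and 10.1 CPM, within the level of non-neural cells. Mitotic IPs and cluster 0 did not differ in Eomes beyond the spread between the embryos.

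Neurog1, the scarcer paralog of Neurog2, had 309 UMIs in the WT and 525 in the cKO library. Cluster 12 held most of it per cell, at 44.1 (WT) and 66.2 CPM (cKO), ahead of mitotic IPs at 12.3 and 20 CPM and of the APs of cluster 5 at 10.2 and 14 CPM. In migrating neurons 2 UMIs were found in WT and 0 in cKO, which allows up to 0.282 CPM.

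Neurod4 had the largest share of its UMIs in IP-like cells among the 7 genes. Of its UMIs, 91.1% in WT and 87.6% in cKO lay there, and it was at 60.8 and 35.9 CPM in cluster 12, 17.9 and 16.3 CPM in mitotic IPs and 13.8 and 8.41 CPM in cluster 0. APs held 9 UMIs in WT and 15 in cKO, and migrating neurons 4 and 1. It was thus lower in cKO in each of these 3 clusters, with the 2 values for mitotic IPs inside each other's counting error.

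Neurod1, a direct target of proneural factors in many tissues, peaked later in this order. It was at the level of non-neural cells in APs, at 152 (WT) and 174 CPM (cKO) in mitotic IPs, at 92.6 and 98.3 CPM in cluster 12 and at 467 and 528 CPM in cluster 0. Migrating neurons held 214 and 277 CPM, and an unnamed cluster led by Tafa1 and Tfap2d (11; 119 WT and 442 cKO cells) held 311 and 286 CPM. In the other unnamed neuron clusters it was at 53.9 and 72.7 CPM (8, led by Crabp1 and Crym) and 49.1 and 70.5 CPM (2, led by Inhba), and in cluster 4 it was back at 12.2 and 13.4 CPM.

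Neurod6 and Neurod2, which act in postmitotic excitatory neurons, were above background from IPs on. Neurod6 was at 737 and 689 CPM in mitotic IPs, at 503 and 411 CPM in cluster 12, and between 999.8 and 1471 CPM in clusters 0, 1, 2, 4, 7 and 8, with 904 and 867 CPM in cluster 11. Neurod2 was highest in migrating neurons, at 789 (WT) and 843 CPM (cKO), and lowest among IPs in cluster 12, at 233 and 249 CPM. Both were thus lower in cluster 12, where Neurog2 and Eomes peaked, than in mitotic IPs or in cluster 0. In APs neither lay above the non-neural cells in both libraries.

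By class, 5 of the 7 genes were highest in IP-like cells (Neurog1, Neurog2, Neurod1, Neurod4, Eomes) and Neurod2 and Neurod6 in migrating neurons, with Neurod6 at 1329 CPM (1314 to 1344) there against 1293 CPM (1281 to 1305) in excitatory neurons. At the finer clustering resolution of 1.2 Neurod1 was highest in migrating neurons. The class of Neurod6 turned with resolution and depth, so its last 2 classes were not told apart.

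Genes with a like profile were sought over the 21 clusters that held at least 50 WT cells, which share 1 library. Neurog1 and Neurog2 had the same 3 nearest genes, Rhbdl3 (Pearson r of log2(CPM + 1) 0.84 and 0.88), Celsr1 (0.83 and 0.87) and Tfap2c (0.84 and 0.86). Btbd17 and Kif26b were nearest to both Eomes (0.90 and 0.84) and Neurod4 (0.79 and 0.71), followed by Dmrta2 for Eomes (0.81) and Dhrs4 for Neurod4 (0.70). Sstr2 (0.92), Rnd2 (0.89) and A930024E05Rik (0.86) were nearest to Neurod1, and Zbtb18 (0.97 and 0.96) and Enc1 (0.91 and 0.92) to both Neurod2 and Neurod6, with Prdm8 (0.90) and Id2 (0.89) next. Among the members themselves, r was 0.98 for Neurod2 with Neurod6, 0.93 for Neurog1 with Neurog2 and 0.89 for Neurog2 with Eomes.

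Single cells held several members together. Cells of the 4 dorsal classes were thinned to 5000 UMIs each, leaving 3998 WT and 4446 cKO cells. Of the 1357 WT and 1446 cKO cells with a Neurog2 UMI, 68.3% (65.8 to 70.8) and 69.8% (67.4 to 72.2) also held Eomes, and 40.8% (38.2 to 43.5) and 42.5% (40.0 to 45.1) held Neurod1. In non-neural cells of both libraries at this depth, 3.24% held Neurog2, 3.24% Eomes and 4.17% Neurod1. Of all the thinned dorsal cells, 1576 in WT and 1724 in cKO held Neurod1. That is close to the share among Neurog2 cells in WT and slightly below it in cKO. Eomes was held by 1405 and 1388 of the thinned dorsal cells, a smaller share than among Neurog2 cells. Neurog1 was found almost wholly in cells with Neurog2, in 96 of 98 WT and 127 of 132 cKO cells.

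Eomes-positive cells held the late factors about as often as all dorsal cells did. Of 1405 WT and 1388 cKO cells with an Eomes UMI, 84.8% (82.9 to 86.7) and 80.4% (78.2 to 82.5) held Neurod6, and 72.2% (69.8 to 74.6) and 72.3% (69.9 to 74.7) held Neurod2. Non-neural cells at this depth held a Neurod6 UMI in 23.6% and a Neurod2 UMI in 15.3%, a share read here as background. Of all dorsal cells at this depth, 3285 of 3998 in WT and 3430 of 4446 in cKO held Neurod6. Neurod2 was held by 2948 and 3184 of these cells. The shares among Eomes-positive cells were close to these, so they are not particular to Eomes-positive cells. Neurog2 was found in 66.0% (63.4 to 68.5) of the Eomes-positive cells in WT and 72.8% (70.3 to 75.1) in cKO.

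Neurod4-positive cells were few, 122 in WT and 84 in cKO. Eomes was present in 96.7% (91.8 to 99.1) of them in WT and 92.9% (85.1 to 97.3) in cKO, and Neurog2 in 92.6% (86.5 to 96.6) and 91.7% (83.6 to 96.6). Neurod6 was present in 92.6% (86.5 to 96.6) in WT and in 75% (64.4 to 83.8) in cKO. This difference was not seen with cells thinned to 3000 UMIs, where 75.9% (65.0 to 84.9; 60 of 79) in WT and 75% (62.1 to 85.3; 45 of 60) in cKO held Neurod6.

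**Figure D2:**
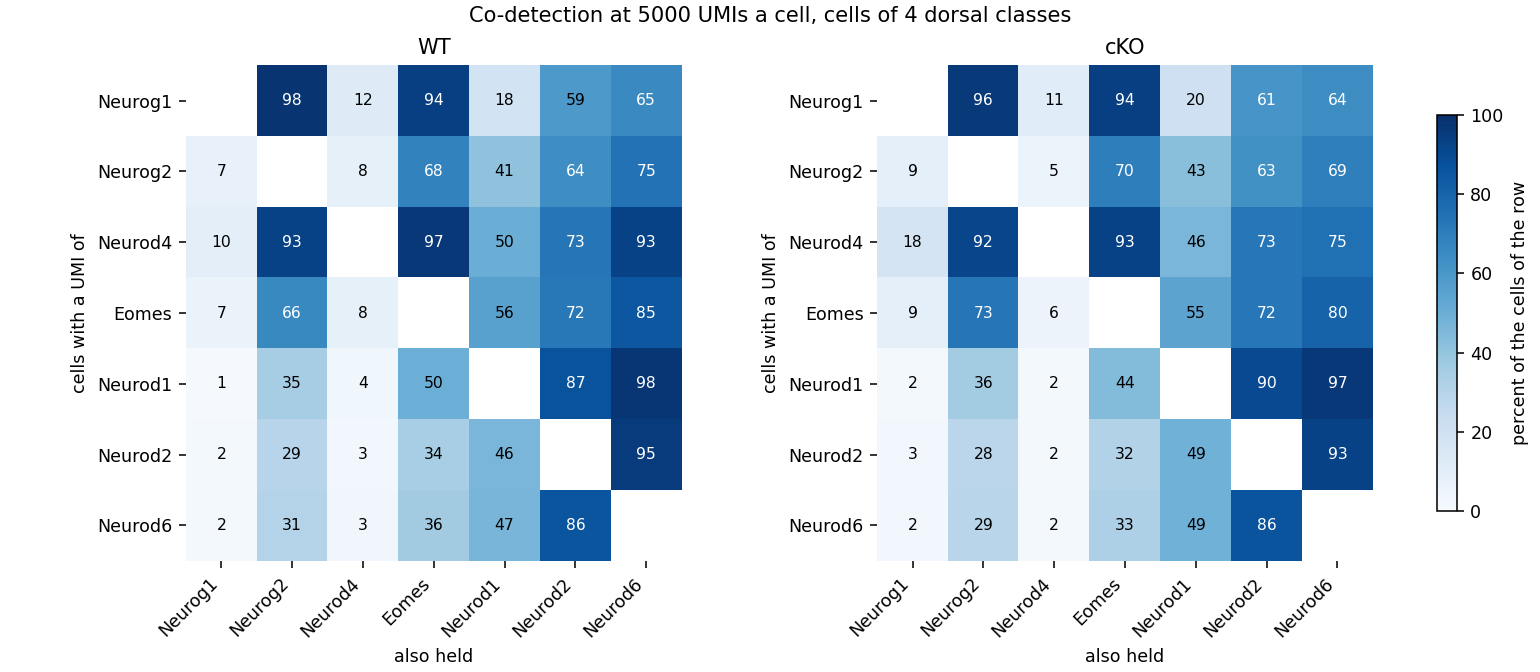
Share of the cells with a UMI of the row's gene that also held a UMI of the column's gene, in percent, over cells of 4 dorsal classes thinned to 5000 UMIs each, for the WT embryo (left, 3998 cells) and the cKO embryo (right, 4446 cells). Nearly every Neurog1 or Neurod4 cell held Neurog2 and nearly every one held Eomes, while of Neurod6 cells 30.8% (WT) and 29.2% (cKO) held Neurog2 and 36.3% and 32.5% held Eomes.

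The genotypes were then compared within each class, to ask whether cells of the same kind held other levels of these factors in cKO. Among the 28 pairs of a member and a dorsal class, 15 had at least 200 UMIs and lay above the non-neural cells in both libraries. A size threshold of at least 25% higher or at least 20% lower in cKO was set. Of these 15 pairs, 3 passed it upwards, 1 passed it downwards and 11 lay within it. With cluster 23 left out of the non-neural cells, Neurog2 in migrating neurons was also read, making 16 pairs, with a log2 ratio of -0.45 (-0.67 to -0.22), so that 2 pairs passed downwards. It was passed either way by 9.52% of 10310 genes in APs, 8.36% of 10342 in IPs, 6.73% of 8828 in migrating neurons and 7.64% of 9937 in excitatory neurons, all with at least 200 UMIs.

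In APs, Neurog1 had 85 UMIs in WT and 158 in cKO, 6.93 CPM (5.53 to 8.57) against 8.68 CPM (7.38 to 10.1), a log2 ratio of 0.33 (-0.06 to 0.72), the 1 of 3 members read there that passed the size threshold. Neurog2 had a log2 ratio of 0.10 (0.03 to 0.16), which was 0.51 (0.36 to 0.65) in the mitotic cluster and -0.08 (-0.15 to -0.01) in the other. For Eomes it was 0.28 (0.17 to 0.38). At the finer clustering (resolution 1.2), the AP-like cluster led by Esco2 and Hist1h3c held 159 WT and 281 cKO cells. The AP-like cluster led by Cdc20 and Tuba1c held 153 and 140. The mitotic cluster may thus be a different mix in the embryos, and the part of this in its Neurog2 value was not tested. The AP values of Neurog2 and Eomes depended on depth, since with each cell thinned to 5000 UMIs they were -0.01 and 0.02, and the share of APs with a Neurog2 UMI was then 43.0% in WT and 37.1% in cKO (58.8% and 51.5% without thinning), against the order of the CPM. In the same APs, 7 of 11 postmitotic neuron genes passed the size threshold upwards, and the list had a median of 0.37 (log2 ratio) against -0.01 for all genes, and the part of this in the AP values was not tested.

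In IPs, 2 of 7 members passed the size threshold, in opposite directions. Neurog1 had 206 UMIs in WT and 327 in cKO, 10.5 CPM against 17.2 CPM, a log2 ratio of 0.72 (0.46 to 0.97). Neurod4 had 418 UMIs in WT and 275 in cKO, with intervals of 19.3 to 23.5 CPM and 12.8 to 16.3 CPM, a log2 ratio of -0.56 (-0.78 to -0.33). Both lay outside the 5th and 95th percentiles of all genes in IPs, -0.25 and 0.34.

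Neurod4 was lower by more than counting error in 2 of the 4 IP-like clusters, with log2 ratios of -0.76 (-1.11 to -0.41) in cluster 12 and -0.72 (-1.09 to -0.35) in cluster 0, and of -0.14 (-0.72 to 0.45) in mitotic IPs and -0.12 (-1.30 to 1.06) in the small cluster 22. The share of IP-like cells with a Neurod4 UMI at 5000 UMIs was 8.23% (6.87 to 9.76) in WT and 5.30% (4.20 to 6.58) in cKO, and 16.9% and 11.8% without thinning. In non-neural cells the share at 5000 UMIs was 0.463%.

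Neurog2 in IPs was at 420.1 CPM (WT) and 520.2 CPM (cKO), a log2 ratio of 0.31 (0.27 to 0.35), just short of the size threshold, and between 0.21 without cluster 0 (left out after seeing the data) and 0.37 at a coarser clustering. It was 0.30 (0.23 to 0.36) in cluster 12, 0.26 (0.19 to 0.34) in cluster 0 and 0.17 (0.06 to 0.27) in mitotic IPs, against -0.38 (-0.58 to -0.19) in cluster 22, whose 91 cells held 2.24 times the median UMIs of their libraries. The other 4 members stayed nearer to WT in IPs, at log2 ratios of 0.15 for Neurod2, 0.10 for Neurod1, -0.04 for Eomes and -0.10 for Neurod6.

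In migrating neurons, Neurod1 was at 214 (WT) and 277 CPM (cKO), a log2 ratio of 0.37 (0.30 to 0.45), and was the 1 of 3 members past the size threshold. It was also higher in the cKO embryo in clusters 2 (0.52, 0.38 to 0.66) and 8 (0.43, 0.25 to 0.62), but not in the uneven cluster 11 (-0.12, -0.28 to 0.03). It was lower in the cKO embryo in the unnamed cluster 13 (443 cells led by Gp9, Ctla2a and Crym, with a median of 0.43 times the UMIs of their libraries), at 153 (WT) and 82.8 CPM (cKO), a log2 ratio of -0.88 (-1.26 to -0.51). A UMI of Neurod1 at 5000 UMIs was held by 55.5% (52.3 to 58.7) of WT and 66.6% (63.4 to 69.6) of cKO migrating neurons, and by 77.9% and 82.3% without thinning, against 4.17% of non-neural cells at 5000 UMIs. Stmn2, a postmitotic neuron gene, was at 355 (WT) and 251 CPM (cKO) in the same cells, and its part in the Neurod1 value was not tested.

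Neurod2 and Neurod6 stayed close to WT in neurons. Neurod2 had log2 ratios of 0.10 (0.05 to 0.14) in migrating and 0.07 (0.02 to 0.11) in excitatory neurons, and Neurod6 of -0.03 (-0.06 to 0.01) and -0.07 (-0.10 to -0.04). The intervals cover counting only, so none of these values tells genotype from the difference between any 2 embryos. Syncrip itself was at 274 (WT) and 304 CPM (cKO) in IPs, and its 3′ tags lie outside the removed exons, so they do not check the deletion.

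**Figure D3:**
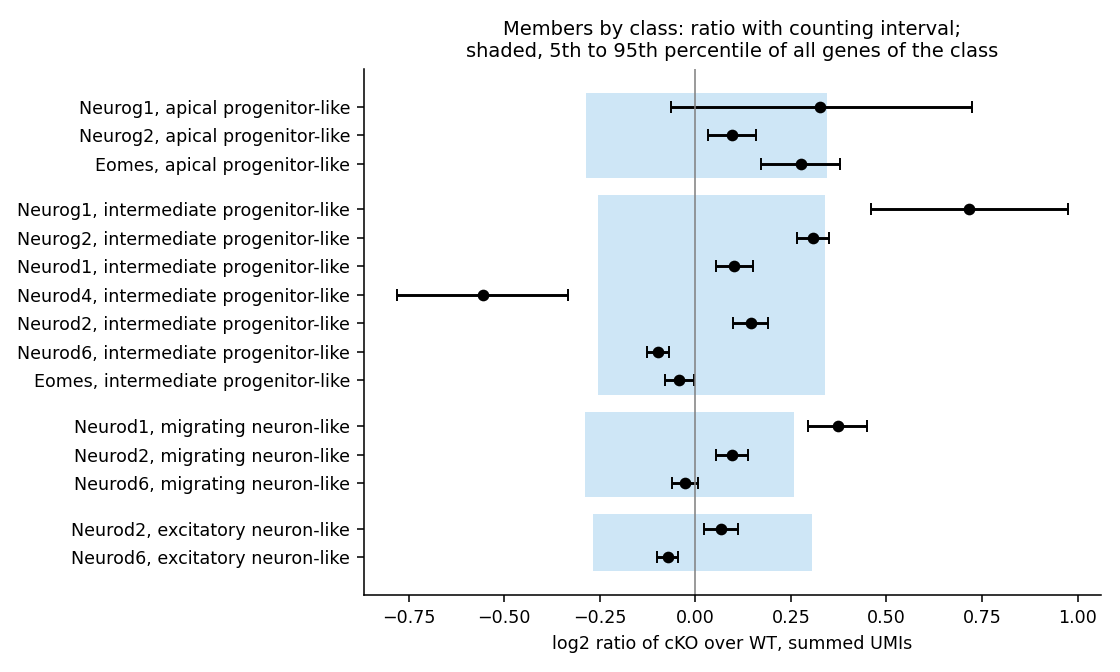
Log2 ratio of cKO over WT of summed UMIs for the 15 pairs of a member and a class that could be read, with the exact 95% counting interval as bars, and as shading the range from the 5th to the 95th percentile of all genes with at least 200 UMIs in that class. Neurog1 (0.72) and Neurod4 (-0.56) in IPs and Neurod1 (0.37) in migrating neurons lie outside the shading.

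Partners and targets of the members were followed in the same classes. For these genes, and for the postmitotic neuron genes above, only the limit of at least 200 UMIs was applied. Their levels were not compared with the non-neural cells, and read has this narrower meaning here. The E protein genes Tcf3, Tcf4 and Tcf12 stayed within the size threshold in IPs and neurons, and Tcf4 was at 2579 (WT) and 2051 CPM (cKO) in APs. Of the 12 targets and effectors of proneural factors, all read in IPs, 2 passed the size threshold upwards, Gadd45g, a growth arrest gene, from 402 to 597 CPM and Cbfa2t3, a corepressor, from 39.6 to 51.6 CPM, and the median log2 ratio of the list was 0.18, against 0.00 for all genes of the class. Gadd45g, Btg2, Mfng, Insm1, Hes6 and Dll3 of this list were among the markers that named the IP clusters, and Rnd2 and Nhlh1 among those of migrating neurons. The list is thus not independent of how these classes were named. Of 9 read in APs, Cbfa2t3 passed upwards, at 6.52 (WT) and 10.5 CPM (cKO), and Insm1 downwards, at 119.8 and 88.4 CPM. Of 12 read in migrating neurons, Nhlh2 passed upwards, at 34.5 and 47.1 CPM. Of 10 read in excitatory neurons, Dll1 (7.14 and 9.73 CPM) and Gadd45g (52.1 and 67.6 CPM) passed upwards and Nhlh2 (9.63 and 7.66 CPM) downwards. The medians of the list in these 3 classes were -0.04, -0.08 and 0.09. Among the repressors, Hes1 was at 157 and 199 CPM in APs, Hes5 at 13.4 and 17.2 CPM in IPs and Hey1 at 22.6 and 30.3 CPM in migrating neurons. Among the Id inhibitors, Id4 was at 27.5 and 39.2 CPM in IPs and 12.3 and 19.6 CPM in excitatory neurons, and Id3 at 22.2 and 11.7 CPM in APs. The other Id, Hes and Hey genes read in these classes stayed within the size threshold.

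Neurog1, Eomes and Neurod4 were scarce in the cultures. Between 16962903 and 22708400 reads were counted per culture. Neurog1 had 0 counts in 5 cultures and 1 in cKO replicate 2, where a count of 0 allows up to 3 counts, 0.134 to 0.175 CPM. Eomes had 4, 5 and 8 counts in the WT and 3, 1 and 1 in the cKO cultures, and Neurod4 had 7, 4 and 11 against 8, 3 and 11. These 3 genes were too low to be tested, and while Neurod4 overlapped between genotypes, every cKO culture was below every WT culture for Eomes. Among the genes that could be tested, 50.4% had groups that did not overlap, in either direction.

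Neurod1 was listed at 0 in all 6 cultures, which is uninformative. Its whole span on chromosome 2 (79452521 to 79456751, minus strand, mm10) lies within Cerkl and partly under Gm26755 on the other strand. Of 10809 genes whose whole span is shared with another gene, 10806 had no count in any culture, against 51.5% of the 27220 genes that share no base. The spans of the other 6 members are not shared.

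Of the 3 members that could be tested, Neurod6 and Neurod2 were lower in cKO and Neurog2 was higher. Over all 14432 genes tested by edgeR's quasi-likelihood test, 39.5% were called at an adjusted p below 0.05, 19.8% lower and 19.7% higher in cKO, so that calls were common in these cultures.

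Neurod6 (chromosome 6, 55677822 to 55681263, minus strand, 2 exons of which 1 is coding) had 338, 213 and 487 counts in the WT and 22, 9 and 23 in the cKO cultures. In units scaled by library size this was 15.2, 11.9 and 21.7 CPM against 1.08, 0.524 and 1.11 CPM. The lowest WT culture was more than 10 CPM above the highest cKO culture. The mean fell from 16.3 ± 5.01 to 0.904 ± 0.329 CPM (SD, n = 3), 18.0-fold, a log2 fold change of -4.14 (SE 0.28, edgeR adjusted p = 1.48e-07), and ranked 13 from the lowest of all 14432.

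Neurod2 (chromosome 11, 98325415 to 98329648, minus strand) had 88, 122 and 189 counts in the WT and 27, 21 and 31 in the cKO cultures, or 3.96, 6.80 and 8.43 CPM against 1.32, 1.22 and 1.49 CPM. The groups did not overlap, and the WT cultures varied more than the cKO cultures. The log2 fold change was -2.24 (SE 0.29, edgeR adjusted p = 4.07e-05), a 4.75-fold fall.

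Neurog2 (chromosome 3, 127633135 to 127635631, plus strand) had 49, 58 and 73 counts in the WT and 102, 82 and 90 in the cKO cultures, or 2.21, 3.23 and 3.26 CPM against 5.0, 4.78 and 4.34 CPM. All cKO cultures were above all WT cultures. The log2 fold change was 0.70 (SE 0.21, edgeR adjusted p = 0.0187), a 1.62-fold rise. The call rested on single cultures, since its adjusted p was 0.0622 without WT replicate 1 and 0.0652 without cKO replicate 1.

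**Figure D4:**
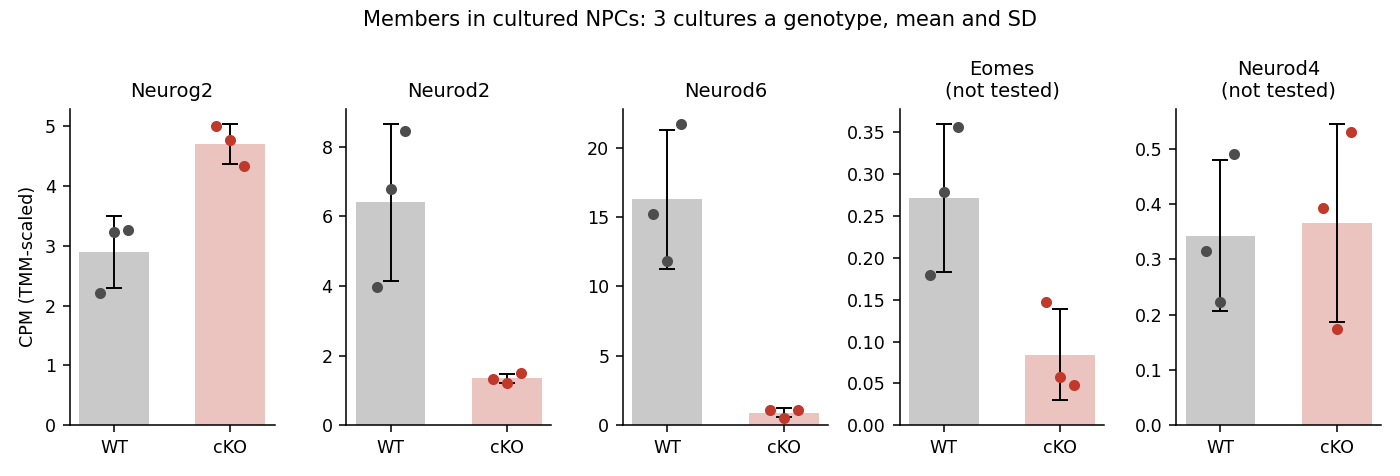
CPM scaled by library size (TMM) of 5 members in cultured NPCs, with a point for each of 3 WT (grey) and 3 cKO (red) cultures, bars for the mean and error bars for the SD; each panel has its own axis from 0. Neurod6 and Neurod2 are lower and Neurog2 higher in every cKO culture than in any WT culture, and Eomes and Neurod4 were too low to be tested.

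The targeted gene was not lower in the cKO cultures. Syncrip was at 77.9, 79.8 and 79.9 CPM in the cultures labelled WT and at 90.3, 88.7 and 81.5 CPM in those labelled cKO (log2 fold change 0.13, SE 0.08, edgeR adjusted p = 0.18), with every cKO culture above every WT culture. Exons 2 to 4 make up 3.15% of its merged exon bases and 13.15% of the transcript with the longest coding sequence. Of its span, 27.0% is shared with Gm20537 on the same strand. A count over the whole gene is thus a weak measure of the loss of these exons. Reads over these exons alone were not analysed here, and the directions given here rest on the labels.

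The partners and regulators of the bHLH factors also moved in the cultures. Of the Id inhibitors, 3 of 4 fell (Id4 from 49.8 ± 2.18 to 23.7 ± 3.36 CPM, Id2 from 172 ± 14.1 to 91.5 ± 9.26 CPM, Id1 from 12.5 ± 1.45 to 8.49 ± 0.673 CPM), with a median log2 fold change of -0.73, against 0.00 over all genes tested. The 4 tested Hes and Hey repressors rose, Hes1 from 4.91 ± 0.438 to 35.1 ± 3.26 CPM, Hey2 from 6.85 ± 1.70 to 16.9 ± 2.44 CPM, Hey1 from 61.2 ± 5.26 to 83.5 ± 0.910 CPM and Hes5, which shares 52.2% of its span with another gene, from 77.0 ± 15.5 to 108 ± 11.2 CPM, with a median of 0.90. The E protein genes Tcf3, Tcf4 and Tcf12 were not called, at log2 fold changes between 0.0016 and 0.21 (edgeR adjusted p = 0.104 to 0.992), and 1 of them was called higher with the replicate block.

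The 12 targets and effectors of proneural factors split. Of 10 tested, 3 rose, the Notch ligand genes Dll1 (53.9 ± 4.49 to 102 ± 6.23 CPM) and Dll3 (262 ± 33.3 to 417 ± 96.5 CPM) and the antiproliferative gene Btg2 (83.3 ± 6.19 to 104 ± 5.16 CPM). Another 4 fell, the transcription factor genes Nhlh1 (13.1 ± 2.59 to 3.35 ± 0.747 CPM) and Insm1 (52.8 ± 9.29 to 19.0 ± 4.05 CPM), the small GTPase gene Rnd2 (245 ± 14.4 to 170.2 ± 6.87 CPM) and the Fringe gene Mfng (31.5 ± 2.28 to 23.4 ± 1.07 CPM). Among other neural bHLH genes, Olig1, a factor of the oligodendrocyte lineage, rose from 1018 ± 121 to 1384 ± 93.7 CPM. Of 11 dorsal excitatory neuron factors tested, 3 rose and 3 fell.

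Markers of other cell types also moved in the cultures, not all in the direction of Neurod6 and Neurod2. Of 12 postmitotic neuron genes, 10 were tested and 7 fell, among them Stmn2 from 15.1 ± 1.68 to 0.152 ± 0.0384 CPM and Mapt from 561 ± 62.4 to 224 ± 17.4 CPM; the WT cultures summed to between 2969 and 3187 CPM over the list and the cKO cultures to between 2655 and 2758 CPM, and Tubb3 and Nefl were listed at 0, both lying wholly within other genes. GABAergic genes summed to 80.3 to 85.0 and 65.0 to 68.6 CPM (4 of 8 tested fell), and astrocyte genes to 5523 to 5778 and 3286 to 3674 CPM (6 of 7 tested fell). Of 8 oligodendrocyte lineage genes, summing to 4051 to 4350 and 3027 to 3596 CPM, 3 rose and 2 fell. Of 4 endothelial and mural genes tested 2 fell, with sums of 43.5 to 51.5 and 24.1 to 34.8 CPM, and the 1 microglia gene tested rose, with sums of 0.279 to 0.982 and 1.32 to 2.27 CPM. The part of these cells in the falls of Neurod6 and Neurod2 was not tested, and in bulk cultures fewer cells of a type and less RNA per cell cannot be told apart.

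The cultures and the tissue gave different pictures of the neuronal members. Neurod6 was 18.0-fold lower and Neurod2 4.75-fold lower in cKO cultures, while in cKO excitatory neurons their log2 ratios were -0.07 and 0.07. Neurog2 was higher in cKO in cultures (0.70), a call that rested on single cultures, and in IPs (0.31), just short of the size threshold. In APs its log2 ratio was 0.10, with 0.51 in the mitotic cluster and -0.08 in the other. With cells thinned to equal depth, 43.0% of WT and 37.1% of cKO APs held a Neurog2 UMI. The difference between the 2 experiments was not tested, since one counts reads over mixed cultures and the other UMIs within cells of a class.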

How the data were processed

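The authors deposited 1 table of raw counts per gene (HISAT2, mm10) for the 6 cultures and 1 matrix of UMI counts per embryo, already filtered to cells (Cell Ranger). Which program counted the reads, and with what strand setting, is not given in the sources used here. Genes were matched to GENCODE M21 for coordinates and shared spans. Counts were scaled by TMM and tested with edgeR 4.0.16 (quasi-likelihood, filterByExpr, Benjamini-Hochberg, threshold 0.05). Barcodes with 200 or more genes and no more than 10% of UMIs from mitochondrial genes were clustered jointly with Seurat 5.3.0 (2000 variable genes, 30 components, resolution 0.8), with the 7 members left out. Scrublet called 298 WT and 444 cKO cells doublets, which stayed in. A cluster was named from at least 3 raised markers of 1 class with a mean z of at least 0.5, a rule set after the clusters were seen. It stayed unnamed where another class had more markers among its top 10 genes by fold, or where its cells were shallow and none of those markers was in that top 10 (cluster 14, 419 cells, 9 AP markers raised, median UMIs 0.243 of the library). Steps were tested on simulated data. The named genes are the members, genes of the lists, Syncrip and the 3 genes most correlated with each member. Members and lists were chosen with earlier results of these data known. The 3 LACE-seq samples were not analysed here. Results for 1 gene of the list of other neural bHLH factors are not reported here.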

Additional observations from a re-analysis of the deposited data

How the results depend on the processing

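The number of members called in the cultures was 2 lower and 1 higher under every scaling, filter and tool tried (RLE and upper quartile scaling, 2 other filters on low counts, DESeq2, limma-voom, sex of the culture as a covariate, read from Y-linked counts found in WT replicates 1 and 2 and cKO replicate 1). Leaving out 1 culture at a time, the number called lower stayed at 2 and the number called higher ranged from 0 to 1, with Neurog2 lost without WT replicate 1 (log2 fold change 0.53) and without cKO replicate 1 (0.65). Same-number correlations of deviations between WT and cKO cultures were 0.264, -0.047 and 0.116, and the others ran from -0.344 to 0.286. With 3 cultures per genotype, these values cannot tell whether replicate numbers pair the samples, and the main test did not pair them. With the replicate block, 2 members were called lower and 1 higher, Neurog2 had a log2 fold change of 0.71 (edgeR adjusted p = 0.014), and 6405 genes were called in all, against 5701 without it. Total calls fell to 4108 without cKO replicate 3. In the tissue, the number of pairs past the size threshold downwards stayed at 1 and the number past it upwards was 3 or 4 over other resolutions, doublet removal, stricter cell filters, thinning and 2 alternatives chosen after seeing the data (without cluster 22, without cluster 0). With the non-neural cells without cluster 23, also chosen after seeing the data, 2 pairs passed downwards and 3 upwards, the added pair being Neurog2 in migrating neurons, which that cluster had kept from being read. Of 105 member ratios under these alternatives, 16 moved out of their counting interval, the cause of which was not tested. Shares of cells with a UMI and co-detection shares moved with depth, 42 of 56 and 23 of 24, so they hold for 5000 UMIs per cell. With 1 embryo per genotype and embryos of different sex, genotype cannot be told apart from embryo or sex.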
